A study of Homo sapiens with 24 samples.

Results

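The 10 genes that encode actin or the proteins that bind it and are described here are *ACTB*, *ACTG1*, *ACTG2*, *COTL1*, *CORO1A*, *LCP1*, *PFN1*, *CFL1*, *TMSB4X* and *TMSB10*. They were taken by symbol from an expression table of 15862 genes, and all 10 were found. The table covers 24 RNA sequencing libraries from 2 established lines of human T-cell acute lymphoblastic leukaemia. LOUCY stands for the early precursor form of the disease (ETP-ALL), and JURKAT is of more mature T-cell type. Each line was sequenced untreated in 6 libraries. A further 4 libraries each came from LOUCY kept for 24 h with 0.05% DMSO (the solvent), with 250 nM JQ1 or with 500 nM I-BET151. Both compounds are inhibitors of BET proteins, the bromodomain readers of acetylated histones that help RNA polymerase to elongate. JURKAT was not treated in the libraries analysed here. The libraries were divided evenly between 2 experiments, and each line is 1 cell line, so a difference between LOUCY and JURKAT is a difference between 2 lines.

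Actin cycles between single subunits and filaments. Beta-actin (*ACTB*) and cytoplasmic gamma-actin (*ACTG1*) form the cortex under the membrane of nearly all cells, whereas *ACTG2* encodes the gamma-actin of smooth muscle of the gut. Thymosin beta-4 (*TMSB4X*) and thymosin beta-10 (*TMSB10*) hold subunits in reserve, profilin (*PFN1*) loads them onto growing ends, and cofilin (*CFL1*) severs old filaments. Coronin 1A (*CORO1A*), L-plastin (*LCP1*) and coactosin-like protein (*COTL1*) bind filaments in blood cells. Coronin 1A is needed for the survival and movement of T cells, and L-plastin bundles filaments at the contact of T cells with other cells.

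The sequences of the 3 actin messages are shown because the results turn on how differently such similar genes were expressed. The first 60 coding bases follow, taken from GENCODE 29 transcripts. Capitals mark bases that differ from *ACTB*, or have no partner in it, in a global alignment of the coding sequences.
ACTB: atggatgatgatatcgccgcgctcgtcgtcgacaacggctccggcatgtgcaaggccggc
ACTG1: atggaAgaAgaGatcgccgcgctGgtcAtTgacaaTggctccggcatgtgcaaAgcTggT
ACTG2: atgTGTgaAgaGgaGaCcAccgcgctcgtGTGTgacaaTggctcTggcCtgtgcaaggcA
In this stretch 10 bases of *ACTG1* and 16 of *ACTG2* are marked. Over the whole coding sequence *ACTG1* was identical to *ACTB* at 91.2% of aligned bases, and *ACTG2* at 84.3%. The longest run shared by *ACTB* and *ACTG1* was 59 bases and that shared by *ACTB* and *ACTG2* was 31 bases. Of all stretches of 50 bases in the *ACTG1* transcript, 0.453% were also present in the *ACTB* transcript, and 0% for *ACTG2*. GENCODE 29 lists 10 pseudogenes named after *ACTB*, 20 after *ACTG1*, 10 after *PFN1*, 8 after *CFL1*, 6 after *TMSB4X* and 2 each after *COTL1* and *TMSB10*. Of these, *ACTG1P17*, *ACTG1P20*, *ACTG1P4* and *CFL1P1* have values of their own among the 15862 genes, and none named after the other genes do. The sources used here do not state how reads matching several places were counted, so levels of the 10 genes carry that uncertainty.

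Serum response factor (SRF), a transcription factor whose coactivators are held back by free actin subunits, binds a 10-letter element called the CArG box. Of the 10 genes, 9 had a promoter in the RefSeq table (build GRCh38.p14). *ACTB* had no entry there, so its promoter was not searched. A CArG box, searched in the 250 bases before the start that RefSeq gives, was present in 1 copy for *ACTG1* and in 2 copies for *ACTG2*. The other 7 promoters held none in that stretch. A CArG box was present in 1.16% of 35116 promoters over the same 250 bases. The element reads as a CArG box on both strands. The 250 bases before both starts are shown because *ACTG1* rose and *ACTG2* fell with JQ1. Capitals mark the CArG boxes, which begin 94 bases before the start of *ACTG1* and, for the first of the pair, 110 bases before that of *ACTG2*. The *ACTG1* stretch is chr17:81512800-81513049 on the minus strand and the *ACTG2* stretch is chr2:73892758-73893007 on the plus strand.
ACTG1 promoter: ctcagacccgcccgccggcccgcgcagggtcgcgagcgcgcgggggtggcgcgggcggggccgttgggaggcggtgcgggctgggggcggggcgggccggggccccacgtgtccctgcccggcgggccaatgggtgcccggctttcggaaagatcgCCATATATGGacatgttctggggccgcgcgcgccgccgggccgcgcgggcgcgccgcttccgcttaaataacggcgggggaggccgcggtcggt
ACTG2 promoter: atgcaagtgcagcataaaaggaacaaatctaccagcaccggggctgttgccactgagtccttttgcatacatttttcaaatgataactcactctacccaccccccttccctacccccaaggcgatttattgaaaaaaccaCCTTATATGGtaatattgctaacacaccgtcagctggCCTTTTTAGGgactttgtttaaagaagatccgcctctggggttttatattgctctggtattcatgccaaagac
A match of letters does not show that SRF binds there in these lines, and the libraries do not measure binding.

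Levels are given as RPKM, read counts scaled by the authors to gene length and library size. These values can be compared between genes because they are per length. Whole reads could be recovered from the table, and listed genes held between 4381134 and 7074198 reads per library. A set of 3 libraries stood apart by the slope of their values on the G and C content (GC) of genes, at -0.380, -0.329 and -0.275 log2 units for 10 percentage points of GC. They were I-BET151 experiment 2 replicate 1, DMSO experiment 2 replicate 1 and untreated LOUCY experiment 2 replicate 2. The other 21 libraries lay between -0.151 and 0.176. The GC content of the 10 genes ran from 45.4% for *LCP1* to 63.0% for *CORO1A*, against a median of 47.9% over genes, and these 3 libraries gave the lowest value of their group for 9, 9 and 7 of the 10 genes. Results are given without these libraries, and with the GC trend of each library removed (an alternative chosen after the data were seen), where a call changed. The labels do not say if replicates were separate cultures, so p-values measure the spread between these libraries, which may be technical.

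T-lineage identity was checked first. Of 9 T-lineage marker genes, 8 reached 1 RPKM in LOUCY groups and 9 did so in JURKAT. *CD5*, which stayed under 1 RPKM in LOUCY, was the exception. Of 12 smooth muscle and fibroblast markers, 9 were in the table, and *TAGLN* was the 1 gene that reached 1 RPKM in any library. The summed level of these markers ran from 0.912 to 4.04 RPKM in LOUCY libraries and from 1.74 to 2.45 RPKM in JURKAT libraries. *MYH11*, the myosin of smooth muscle, was at 0.117 to 0.407 RPKM and *MYOCD*, its master regulator, at 0 to 0.402 RPKM over all groups. *ACTA2*, the alpha-actin of smooth muscle, was at 0.653 to 2.09 RPKM in JURKAT and at 0.202 to 1.47 RPKM in LOUCY libraries. It was the 1 gene of 4 other actins analysed here, and it was lower in LOUCY (-0.52 ± 0.15, adjusted p = 0.00606).

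**Figure D1:**
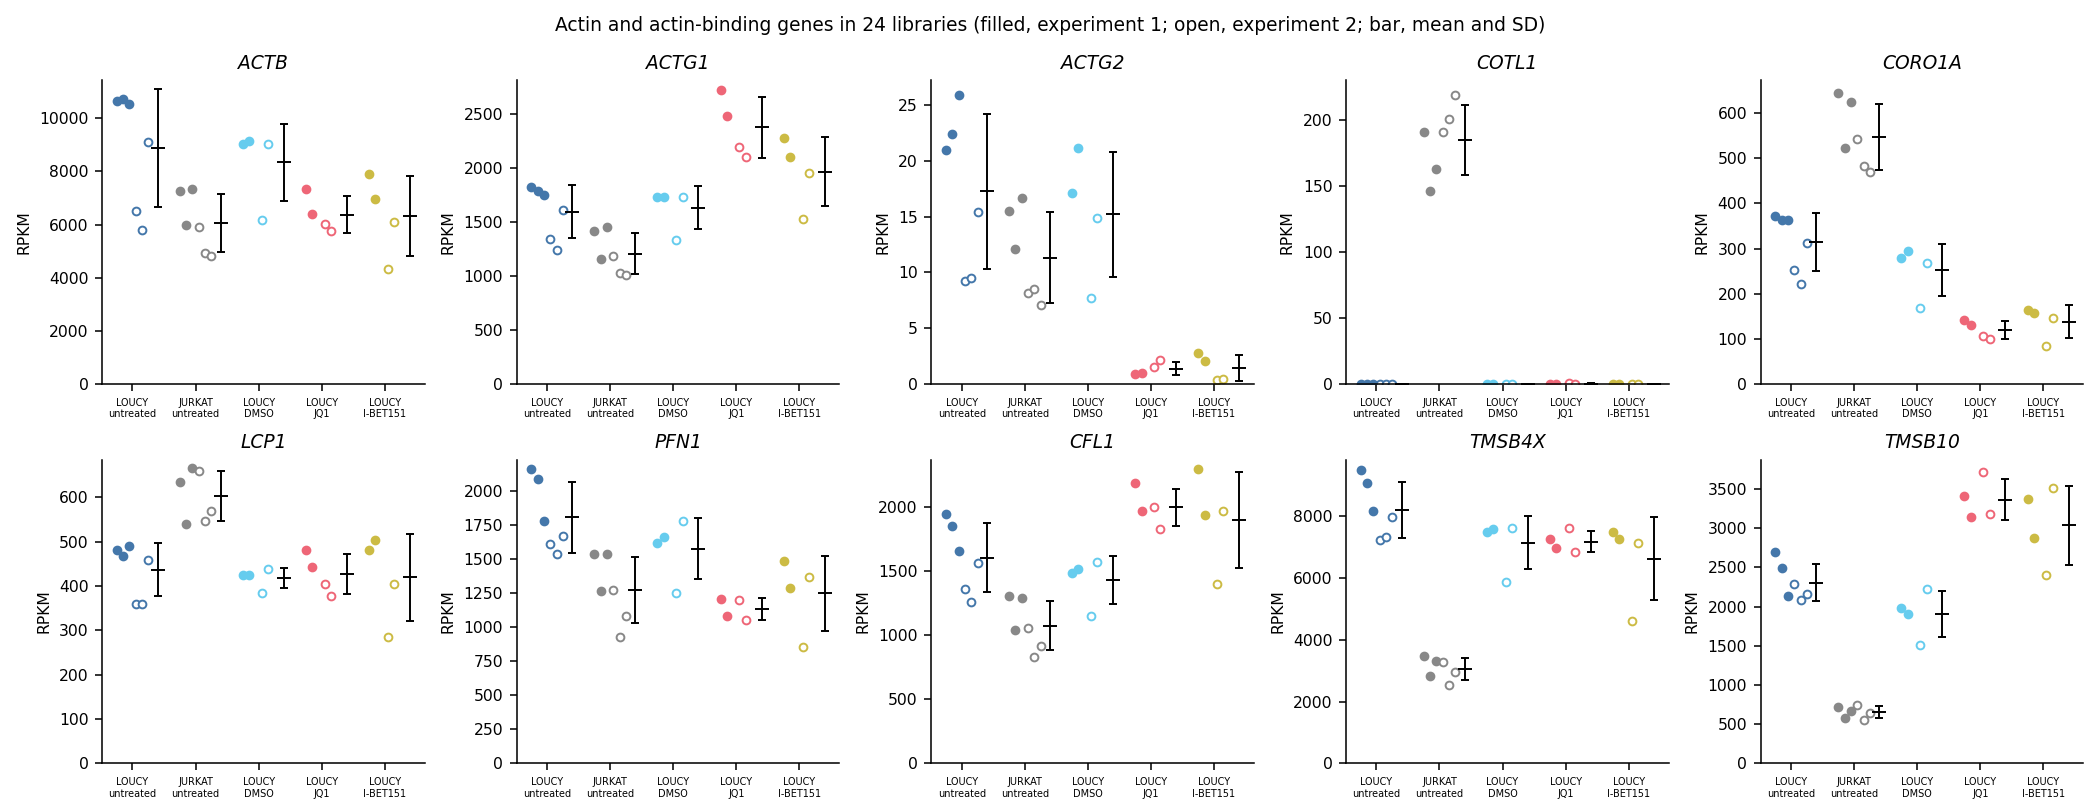
RPKM of the 10 genes, 1 panel per gene with its own vertical axis from 0, by group on the horizontal axis. Filled points are libraries of experiment 1, open points those of experiment 2, and bars give the mean and SD. COTL1 lies near 0 in all LOUCY groups, ACTG2 drops to at most 2.75 RPKM with either inhibitor, and ACTG1 and TMSB10 stand above DMSO in every JQ1 library.

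The 10 genes made up a sizeable part of the measured message. They accounted for 5.23% ± 0.73 (SD, n = 6) of listed RPKM in untreated LOUCY and 3.21% ± 0.36 (n = 6) in untreated JURKAT. The share was 4.99% ± 0.72 with DMSO, 5.29% ± 0.27 with JQ1 and 4.94% ± 1.06 with I-BET151 (n = 4 each). The LOUCY groups overlapped one another, while every untreated LOUCY library lay above the highest JURKAT library, at 4.13% against 3.62%. *ACTB* and *TMSB4X* were the leading genes of the set. *ACTB* ranked between 1 and 4 among all genes in every library, and *TMSB4X* between 1 and 3. The order in untreated LOUCY was *ACTB*, *TMSB4X*, *TMSB10*, *PFN1*, *CFL1*, *ACTG1*, *LCP1*, *CORO1A*, *ACTG2* and *COTL1* by mean RPKM. The ranges of *ACTB* and *TMSB4X* overlapped, as did those of *TMSB10* and *PFN1*, of *PFN1*, *CFL1* and *ACTG1*, and of *LCP1* and *CORO1A*. In JURKAT the order was *ACTB*, *TMSB4X*, *PFN1*, *ACTG1*, *CFL1*, *TMSB10*, *LCP1*, *CORO1A*, *COTL1* and *ACTG2*, and the ranges overlapped from *PFN1* to *CFL1* and from *TMSB10* to *CORO1A*.

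Untreated LOUCY was then compared with untreated JURKAT, which asks how 2 leukaemias of different maturity differ. *COTL1* was close to absent in LOUCY and abundant in JURKAT, and both thymosins were several-fold higher in LOUCY. All 10 genes differed by limma (Benjamini-Hochberg adjusted p under 0.05): 7 were higher in LOUCY and 3 lower. That count has to be read against the whole table, where 73.1% of 11978 tested genes differed, 35.5% higher and 37.5% lower in LOUCY. The median log2 difference was 0.53 over the 10 genes and -0.02 over all genes tested. All log2 differences here are of log2(RPKM + 1), which understates the change of genes near 0.

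Coactosin-like protein binds filaments and also 5-lipoxygenase. *COTL1* (chr16:84565594-84618077, minus strand) was read 0 to 3 times per untreated LOUCY library, 9 reads in all, and 1262 to 2390 times per JURKAT library, 11070 reads in all. In RPKM the LOUCY libraries ran from 0 to 0.272 with a median of 0.143, and the JURKAT libraries from 145.9 to 218.9 with a median of 190.9. The groups did not overlap. Per read in listed genes, *COTL1* was 1411-fold higher in JURKAT, with an exact 95% interval of 743 to 3087 that covers counting error only. The fitted log2 difference of -7.35 ± 0.10 (SE, adjusted p = 2.51e-17) was the 16th largest in size among the genes tested. *COTL1* stayed at 0 to 4 reads per library in the DMSO, JQ1 and I-BET151 groups and was not tested there because it did not reach 1 RPKM in any LOUCY library.

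The other filament binders of blood cells were also lower in LOUCY. *CORO1A* ran from 221.4 to 373 RPKM in LOUCY (median 337.5) and from 468.7 to 644.7 in JURKAT (median 532.2). Its log2 difference was -0.82 ± 0.09 (adjusted p = 8.19e-07). *LCP1* ran from 360 to 489.6 RPKM in LOUCY (median 463.6) and from 540.4 to 665.5 in JURKAT (median 602), a log2 difference of -0.47 ± 0.09 (adjusted p = 1.59e-04). In neither gene did the groups overlap.

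The thymosins showed the opposite order. *TMSB4X* ran from 7232 to 9483 RPKM in LOUCY (median 8063) and from 2529 to 3481 in JURKAT (median 3124). *TMSB10* ran from 2085 to 2689 RPKM in LOUCY (median 2220) and from 553.3 to 747.7 in JURKAT (median 657.9). Every LOUCY library lay above every JURKAT library for both. The log2 difference was 1.42 ± 0.08 for *TMSB4X* (adjusted p = 3.21e-10) and 1.82 ± 0.09 for *TMSB10* (adjusted p = 4.16e-11). For *TMSB4X* it turned to -0.017 with quantile normalization, which gives the leading genes of all libraries the same values by construction.

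Actins, profilin and cofilin were moderately higher in LOUCY, and their groups overlapped. *ACTB* ran from 5794 to 10713 RPKM in LOUCY (median 9828) and from 4834 to 7354 in JURKAT (median 5963), a log2 difference of 0.53 ± 0.11 (adjusted p = 3.26e-04). It was 0.64 in experiment 1 and 0.43 in experiment 2, where the adjusted p was 0.0575 (adjusted p 1.46e-05 to 0.0813 over the alternatives), and it turned to -0.23 with quantile normalization. *ACTG1* had a median of 1680 RPKM in LOUCY and 1172 in JURKAT (0.40 ± 0.08, adjusted p = 4.17e-04), a call that was lost with quantile normalization (0.12, adjusted p = 0.137). *ACTG2* had a median of 18.2 RPKM in LOUCY and 10.3 in JURKAT (0.53 ± 0.12, adjusted p = 0.00113). In experiment 2 alone its difference was 0.45 with an adjusted p of 0.0687. *PFN1* (median 1723 against 1266 RPKM) and *CFL1* (median 1611 against 1050 RPKM) had log2 differences of 0.52 ± 0.09 and 0.58 ± 0.09 (adjusted p = 6.11e-05 and 1.66e-05). Over the alternatives the *PFN1* difference ran from 0.22 to 0.57. Of 12 genes commonly used as references for expression, 7 were higher and 2 lower in LOUCY, with a median log2 difference of 0.33.

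**Figure D2:**
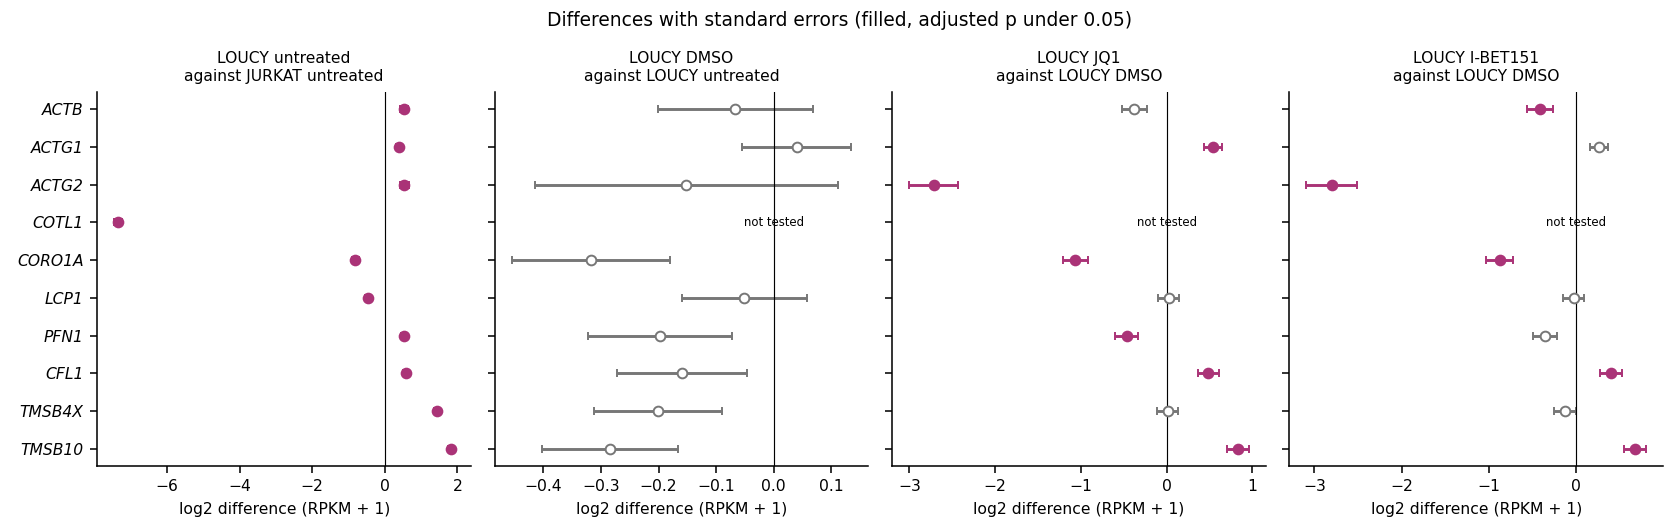
Log2 difference of log2(RPKM + 1) for each gene in 4 comparisons, with standard errors and a separate horizontal axis per panel. Filled points passed an adjusted p of 0.05. All 10 genes are filled for LOUCY against JURKAT (under quantile normalization ACTB and TMSB4X change sign and ACTG1 does not pass), none for DMSO against untreated, 6 for JQ1 and 5 for I-BET151.

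The solvent was compared with no treatment as the background for the inhibitors. None of the 9 tested genes changed by limma, and 2 of them (*CORO1A* and *TMSB10*) had an unadjusted p under 0.05. Over all 11411 genes, 0.175% changed and 9.64% had an unadjusted p under 0.05. The voom fit on recovered reads also called 0 of the 9. The log2 differences ran from -0.32 for *CORO1A* to 0.04 for *ACTG1*, and the groups overlapped for each gene.

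The BET inhibitors were each compared with DMSO, which asks what blocking BET proteins does to LOUCY cells. The labels give a DMSO percentage for the DMSO group alone, so whether the inhibitor groups carried the same amount of solvent is not stated. The actin genes divided: *ACTG2* fell about 10-fold with both compounds, *ACTG1* rose with JQ1, and *ACTB* was lower on average. The subunit binders divided as well, with *TMSB10* and *CFL1* up, *PFN1* down with JQ1, and *TMSB4X* near its DMSO level. With JQ1, 3 of 9 tested genes rose and 3 fell by limma, where 26.0% of 11411 genes changed, 10.1% up and 15.9% down. With I-BET151, 2 of 9 rose and 3 fell (3 and 2 in the voom fit, with *ACTG1* called and *ACTB* not, and 26.5% of genes called), where 26.3% changed, 10.3% up and 15.9% down. These directions over all genes depended on the scaling. With values rescaled to one sum per library the split was 1422 up and 1472 down for JQ1, against 1157 and 1814, and 1435 up and 1523 down for I-BET151, against 1180 and 1819. With quantile normalization it was 1416 and 1547 for JQ1. The median log2 difference over the 9 genes was 0.01 with JQ1 and -0.13 with I-BET151, against -0.01 and 0.000406 over all genes tested. Both comparisons share the 4 DMSO libraries, so they are not independent.

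*ACTG2* (chr2:73892314-73919865, plus strand) showed the largest difference of the set. The 4 DMSO libraries held 17.1, 21.1, 7.73 and 14.9 RPKM (111, 145, 69 and 106 reads). With JQ1 it was 0.877, 1.01, 1.54 and 2.10 RPKM (6, 7, 11 and 13 reads), and with I-BET151 it was 2.75, 2.06, 0.388 and 0.464 RPKM (20, 14, 3 and 3 reads). In each case the first pair of values is experiment 1. Every inhibitor library lay below every DMSO library, and the order of the experiments was opposite for the 2 compounds.

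The log2 difference of *ACTG2* was -2.72 ± 0.29 with JQ1 (adjusted p = 1.35e-06) and -2.80 ± 0.29 with I-BET151 (adjusted p = 9.94e-07). In size these were the 7th and 5th largest of the 11411 genes tested. Summed reads, 37 with JQ1 and 40 with I-BET151 against 431 with DMSO, gave a fall of 10.3-fold for each per read in listed genes. The exact 95% intervals, for counting error only, were 7.37 to 14.9 and 7.44 to 14.6. It fell in experiment 1 by 3.36 and 2.56 on the log2 scale, and in experiment 2 by 2.07 and 3.05, and it was the 1 gene of the set still past the threshold for both compounds in experiment 2 alone. *ACTG2* was 0.177% ± 0.044 of the *ACTB* level with DMSO, 0.0225% ± 0.011 with JQ1 and 0.0202% ± 0.014 with I-BET151 (SD, n = 4 each). In untreated cells it was 0.188% ± 0.037 in LOUCY and 0.183% ± 0.036 in JURKAT (n = 6 each). That share was chosen after the values were seen and was not tested.

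**Figure D3:**
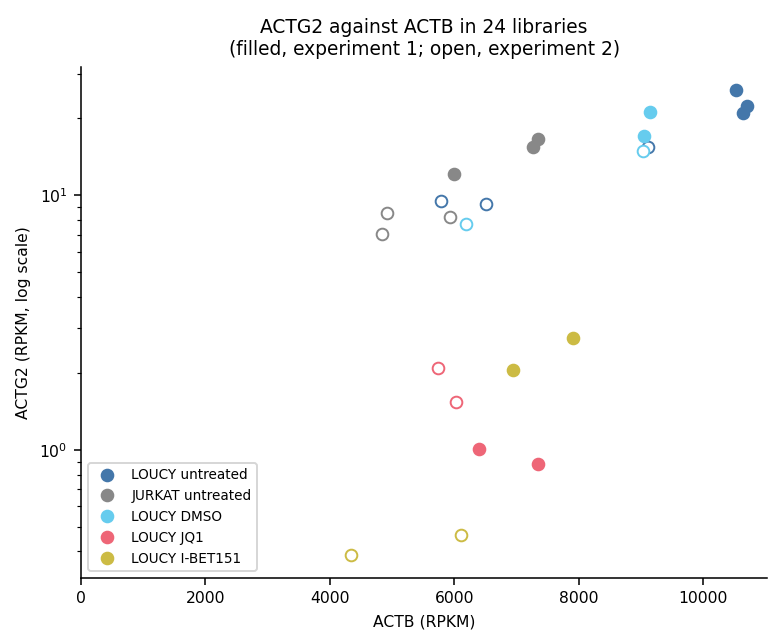
ACTG2 (RPKM, log scale) against ACTB (RPKM) in each of the 24 libraries, coloured by group, filled for experiment 1 and open for experiment 2. Libraries without inhibitor lie at 7.03 to 25.9 RPKM of ACTG2, and the 8 inhibitor libraries at 0.388 to 2.75.

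*ACTG1* rose with JQ1. The DMSO libraries held 1728, 1731, 1331 and 1731 RPKM and the JQ1 libraries 2725, 2482, 2190 and 2102, without overlap. The log2 difference was 0.54 ± 0.10 (adjusted p = 6.85e-04), at 0.59 in experiment 1 and 0.50 in experiment 2. With I-BET151 the libraries held 2279, 2102, 1528 and 1955 RPKM, overlapping DMSO through the library of steep GC slope, and the difference was 0.26 ± 0.10 (adjusted p = 0.0692). Without the 3 libraries of steep slope it was 0.28 ± 0.08 (adjusted p = 0.0187, 2.05e-04 to 0.70 over the alternatives), and with the GC trend removed it was 0.35 ± 0.06 (adjusted p = 2.05e-04). It also passed without DMSO experiment 2 replicate 2 or I-BET151 experiment 2 replicate 1.

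*ACTB* stood near the threshold with both compounds. The DMSO libraries held 9049, 9142, 6183 and 9027 RPKM, the JQ1 libraries 7347, 6393, 6030 and 5742, and the I-BET151 libraries 7905, 6948, 4339 and 6113. Of the 4 DMSO libraries, 3 lay above all 8 inhibitor libraries, and the remaining one was the DMSO library of steep GC slope. The log2 difference was -0.38 ± 0.15 with JQ1 (adjusted p = 0.0697) and -0.42 ± 0.15 with I-BET151 (adjusted p = 0.0445). Without the 3 libraries of steep slope it was -0.47 ± 0.11 (adjusted p = 0.0038, 0.00307 to 0.597 over the alternatives) and -0.38 ± 0.12 (adjusted p = 0.0221, 0.00483 to 0.325 over the alternatives). With the GC trend removed the JQ1 difference passed as well (-0.36 ± 0.09, adjusted p = 0.00307). The I-BET151 call was lost under 8 of the alternatives and when any of 10 single libraries was left out. Those were untreated LOUCY experiment 1 replicates 1, 2 and 3, DMSO experiment 1 replicates 1 and 2, DMSO experiment 2 replicate 2, JQ1 experiment 1 replicate 1, JQ1 experiment 2 replicate 2, I-BET151 experiment 1 replicate 2 and I-BET151 experiment 2 replicate 1. The JQ1 call appeared without untreated LOUCY experiment 2 replicate 2, DMSO experiment 2 replicate 1 or I-BET151 experiment 2 replicate 1.

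Of the thymosins, *TMSB10* rose and *TMSB4X* stayed near its DMSO level. *TMSB10* was at 1982, 1908, 1504 and 2220 RPKM with DMSO, 3413, 3142, 3714 and 3180 with JQ1, and 3365, 2878, 2403 and 3508 with I-BET151. Neither inhibitor group overlapped DMSO. The log2 difference was 0.83 ± 0.13 with JQ1 (adjusted p = 9.27e-05) and 0.67 ± 0.13 with I-BET151 (adjusted p = 7.47e-04). *TMSB4X* was at 7500, 7598, 5860 and 7634 RPKM with DMSO, 7247, 6973, 7609 and 6852 with JQ1, and 7483, 7258, 4612 and 7137 with I-BET151. Its log2 differences were 0.01 ± 0.12 (adjusted p = 0.957) and -0.13 ± 0.12 (adjusted p = 0.476), and the groups overlapped.

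Cofilin and profilin moved apart. *CFL1* was at 1483, 1515, 1153 and 1574 RPKM with DMSO and rose to 2188, 1967, 1998 and 1829 with JQ1 (0.49 ± 0.12 on the log2 scale, adjusted p = 0.00675), without overlap. With I-BET151 it was at 2295, 1936, 1395 and 1971 RPKM (0.40 ± 0.12, adjusted p = 0.0237), and the library of steep GC slope overlapped DMSO. That call was lost in a fit of these 2 groups alone and without any of 5 libraries: DMSO experiment 1 replicates 1 and 2, DMSO experiment 2 replicate 1, I-BET151 experiment 1 replicate 1 and I-BET151 experiment 2 replicate 2. The difference was 0.32 to 0.50 without single libraries, with adjusted p between 0.00422 and 0.0785.

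*PFN1* was at 1615, 1657, 1252 and 1779 RPKM with DMSO and fell to 1207, 1079, 1197 and 1053 with JQ1, without overlap. The difference was -0.46 ± 0.14 (adjusted p = 0.017). That call was lost with values rescaled to one sum per library, with quantile normalization, in experiment 2 alone, and without JQ1 experiment 1 replicate 2 or DMSO experiment 2 replicate 2. Its adjusted p ran from 1.12e-04 to 0.471 over the alternatives. With I-BET151 the libraries held 1482, 1288, 853.9 and 1364 RPKM (-0.36 ± 0.14, adjusted p = 0.0633). Without the 3 libraries of steep slope that difference was -0.29 ± 0.10 (adjusted p = 0.0467, 0.00731 to 0.358 over the alternatives), and with the GC trend removed it was -0.27 ± 0.07 (adjusted p = 0.00731). It also passed without DMSO experiment 2 replicate 1 or I-BET151 experiment 2 replicate 2.

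Of the filament binders, *CORO1A* fell and *LCP1* did not pass the test. *CORO1A* was at 279.2, 295.3, 169 and 267.7 RPKM with DMSO, 141.1, 130.1, 106 and 99.2 with JQ1, and 162.8, 157.8, 85.2 and 146.9 with I-BET151. Every inhibitor library lay below every DMSO library. The log2 difference was -1.06 ± 0.15 with JQ1 (adjusted p = 3.69e-05) and -0.88 ± 0.15 with I-BET151 (adjusted p = 2.68e-04). *LCP1* was at 425.4, 424.7, 383.9 and 437.6 RPKM with DMSO, 481.1, 441.9, 404 and 377.3 with JQ1, and 481.2, 504.2, 285.2 and 405.4 with I-BET151. The differences were 0.02 ± 0.12 (adjusted p = 0.911) and -0.03 ± 0.12 (adjusted p = 0.887).

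The experiments were also fitted separately. In experiment 1, 7 genes passed with JQ1 and 6 with I-BET151, while in experiment 2, *ACTG2* alone passed with each. Experiment 2 holds the DMSO and I-BET151 libraries of steep GC slope. Over the whole table experiment 2 gave 392 and 454 genes for JQ1 and I-BET151 (3.44% and 3.98%). Experiment 1 gave 3455 and 2807 (30.3% and 24.6%). The 6 genes called for JQ1 and the 5 called for I-BET151 had the same sign in both experiments. In a fit with the product of group and experiment no gene of the set passed (smallest adjusted p = 0.67 over the 5 comparisons), and at most 0.025% of all genes did in any of them, so this test does not show that the responses were alike. For *ACTG2* the log2 difference between JQ1 and DMSO changed by 1.30 from experiment 1 to experiment 2, and that between JQ1 and I-BET151 by 1.78 (limma adjusted p = 0.999 and 0.903). Without the 3 libraries of steep slope 7 genes passed with each inhibitor, where the share over all genes was 36.0% for JQ1 and 29.5% for I-BET151, against 26.0% and 26.3% with them.

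Ratios of 2 genes within a library do not depend on how the library was scaled, and 3 were formed. *ACTG1* and *ACTB*, and *TMSB10* and *TMSB4X*, are pairs of like function, while *CFL1* and *PFN1* differ in their roles. *ACTG1* was 0.197 ± 0.012 of *ACTB* with DMSO (SD, n = 4), 0.372 ± 0.011 with JQ1 and 0.316 ± 0.027 with I-BET151. Neither inhibitor group overlapped DMSO, and the ratio was 1.89-fold and 1.60-fold higher. *TMSB10* was 0.266 ± 0.018 of *TMSB4X* with DMSO, 0.468 ± 0.016 with JQ1 and 0.465 ± 0.054 with I-BET151, which is 1.77-fold and 1.74-fold higher, again without overlap. *CFL1* was 0.910 ± 0.017 of *PFN1* with DMSO, 1.76 ± 0.072 with JQ1 and 1.53 ± 0.080 with I-BET151. In DMSO profilin message exceeded cofilin message in all 4 libraries, and with either inhibitor the order was turned in all 8. That ratio was 1.94-fold and 1.68-fold higher.

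Each of these 6 differences had an exact permutation p of 0.0286 (two-sided, 4 libraries against 4), the smallest that 70 assignments can give, and 0.0476 after adjustment over 15 tests. These assignments exchange libraries between the experiments. With libraries exchanged within experiments alone, 36 assignments remain, and the exact permutation p was 0.0556 for each of the 6, the smallest they can give, so none could pass (adjusted p = 0.0833). The ratios of *ACTG1* to *ACTB* and of *CFL1* to *PFN1* were also higher with JQ1 than with I-BET151, by 0.24 ± 0.07 and 0.20 ± 0.05 on the log2 scale without overlap (exact permutation p = 0.0286, adjusted 0.0476, and 0.0556, adjusted 0.0833, within experiments). The first of these was 0.36 in experiment 1 and 0.12 in experiment 2. The ratio of *TMSB10* to *TMSB4X* differed by 0.02 ± 0.09 between the compounds (exact permutation p = 0.857). Against JURKAT, untreated LOUCY passed the threshold in 1 of the 3 ratios, *TMSB10* to *TMSB4X*, which was 0.282 ± 0.019 and 0.214 ± 0.009 (SD, n = 6, exact permutation p = 0.00216, adjusted 0.0325). Within experiments that p was 0.005 (exact permutation, adjusted 0.075), the smallest that 400 assignments can give. *ACTG1* to *ACTB* differed by -0.13 on the log2 scale (exact permutation p = 0.0736, and 0.04, adjusted 0.0833, within experiments) and *CFL1* to *PFN1* by 0.06 (exact permutation p = 0.115), each with overlap. DMSO and untreated LOUCY did not differ past the threshold in any of the 3 ratios (adjusted exact permutation p = 0.268 to 0.418).

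**Figure D4:**
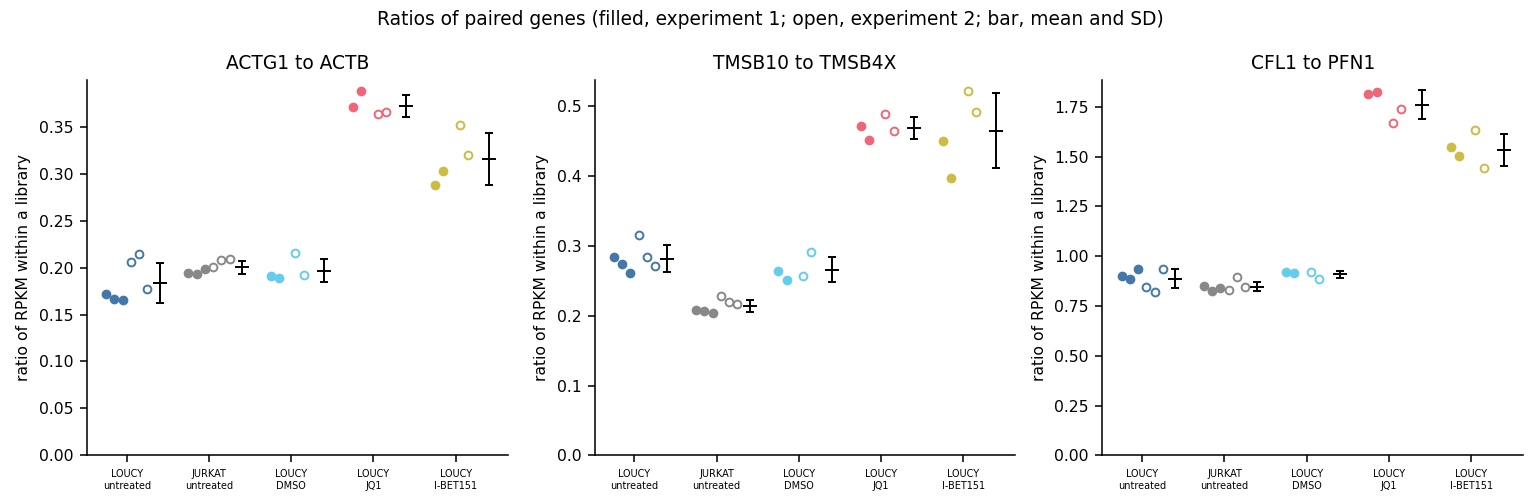
Ratio of RPKM within each library for 3 gene pairs, by group, with filled points for experiment 1, open points for experiment 2, and the mean and SD. All JQ1 and I-BET151 libraries lie above all DMSO libraries in each panel, and CFL1 to PFN1 passes from below 1 to above 1.

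JQ1 was set against I-BET151 directly, at doses that differ (250 and 500 nM). No gene of the set and 0% of 11411 genes passed by limma, and voom on recovered reads also called 0. At an unadjusted p under 0.05 there were 531 genes (4.65%), with 1 of the 9 among them. That gene was *ACTG1*, at 0.28 ± 0.10 higher with JQ1 (adjusted p = 0.964). The log2 differences of the 9 genes ran from -0.18 (*CORO1A*) to 0.28 (*ACTG1*). For *ACTG2* the difference was 0.09 ± 0.29, at -0.80 in experiment 1 and 0.98 in experiment 2.

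The rest of the actin cytoskeleton was read from lists of genes by role. In LOUCY against JURKAT, tropomyosins and myosins, which coat filaments or pull on them, were higher for 11 of 12 tested genes and lower for 0, with a median log2 difference of 0.95. *MYO1F* (3.45 ± 0.12) and *TPM4* (1.45 ± 0.06) led by adjusted p. Membrane and adhesion linkers were higher for 7 of 9, led by *ZYX* (2.65 ± 0.11) and *VASP* (2.34 ± 0.11). The ARP2/3 complex, which starts filament branches, was higher for 5 of 9 and lower for 0, with *ARPC2* at 1.06 ± 0.07 and *ARPC4* at 1.24 ± 0.09. Other coronins and crosslinkers went both ways, 5 higher and 6 lower of 13. Among them *FSCN1* (fascin) was higher by 5.34 ± 0.17 and *ACTN1* (alpha-actinin) by 1.73 ± 0.10, while *CORO1B* was lower by 5.04 (SE 0.12) and *PLS3*, the plastin of non-blood cells, by 3.28 (SE 0.10) on the log2 scale.

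Other genes listed as subunit-binding or severing were higher for 4 and lower for 2 of 10 in that comparison. Among them were *TMSB15A*, another beta-thymosin, at 2.87 ± 0.11 and *CAPG* at 2.05 ± 0.08. Formins, which extend unbranched filaments, were higher for 5 and lower for 4 of 9, with *FMNL1* at 0.85 ± 0.11 and *DIAPH2* at -1.90 ± 0.10. ARP2/3 activators were higher for 6 and lower for 2 of 12, with *WASF1* at 1.91 ± 0.14 and *CYFIP1* at -1.37 ± 0.08. Filament cappers were higher for 5 and lower for 1 of 7. These shares stand beside the 35.5% higher and 37.5% lower over all genes.

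With the inhibitors, tropomyosins and myosins fell for 5 of 12 genes with JQ1 and 7 of 12 with I-BET151, and 0 rose. The shares over all genes, which stand beside every list here, were 15.9% down with each compound, and 10.1% up with JQ1 and 10.3% up with I-BET151. *TPM4* had log2 differences of -1.38 ± 0.09 and -1.16 ± 0.09 (adjusted p = 3.83e-09 and 3.35e-08). *TPM1* fell by 0.85 (SE 0.11) with JQ1 and *MYO1F* by 1.12 (SE 0.18) with I-BET151. The median of the list was -0.25 with JQ1 and -0.37 with I-BET151. Other genes of the subunit-binding and severing list went both ways. With JQ1 3 of 10 rose and 2 fell, and with I-BET151 1 rose and 2 fell. *DSTN*, the close relative of cofilin also called destrin, fell by 1.09 (SE 0.13) and 0.81 (SE 0.13), and *CAPG* fell by 0.91 and 0.91, while *GSN* (gelsolin) rose by 0.61 ± 0.16 and 0.70 ± 0.16. *CFL1* and *DSTN* thus differed in direction with both compounds.

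Among ARP2/3 subunits 2 of 9 fell and 0 rose with each compound, a count near the 15.9% that fell over all genes. They were *ARPC2* (-0.55 and -0.40) and *ACTR3* (-0.66 and -0.44). Linkers rose for 2 of 9 with each and fell for 2 with JQ1 and 4 with I-BET151. There *VCL* (vinculin) rose by 0.65 and 0.67, while *ZYX* (zyxin) fell by 1.12 and 0.82, and *VASP* by 0.86 and 0.92. The formin *DAAM1* rose by 0.69 and 0.82, and *FMNL1* fell by 0.48 and 0.58. Of 7 formins, 1 rose with each compound, while 2 fell with JQ1 and 1 with I-BET151. Other coronins and crosslinkers rose for 2 and fell for 1 of 11 with JQ1, and rose for 1 and fell for 2 with I-BET151. ARP2/3 activators fell for 2 of 12 with each, and 0 rose with JQ1 and 1 with I-BET151. Filament cappers rose for 1 of 7 with JQ1 and 2 of 7 with I-BET151, and 0 fell.

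*SRF* itself fell, by 0.68 (SE 0.19) with JQ1 and 0.61 (SE 0.19) with I-BET151 (adjusted p = 0.014 and 0.0245), and its 2 listed coactivators did not pass. Of 12 common reference genes, to which *ACTB* is often added in assays of relative expression, 2 rose and 3 fell with each inhibitor, near the shares over all genes (10.1% and 10.3% up, 15.9% down). *TFRC* fell by 1.12 and 1.30 and *B2M* rose by 0.51 and 0.60. T-lineage markers fell for 5 of 8 with each (1 rose with I-BET151), with *LCK* down by 2.12 (SE 0.13) and 2.07 (SE 0.13) and *CD3D* down by 0.79 and 0.80. The summed level of the T-lineage list was 1755 to 2176 RPKM with DMSO, 1204 to 1270 with JQ1 and 1040 to 1354 with I-BET151. It moved in the same direction as *CORO1A*, and its part in that result was not tested. The libraries are bulk RNA of 1 line, so a fall in every cell and a fall in some of the cells cannot be told apart.

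**Figure D5:**
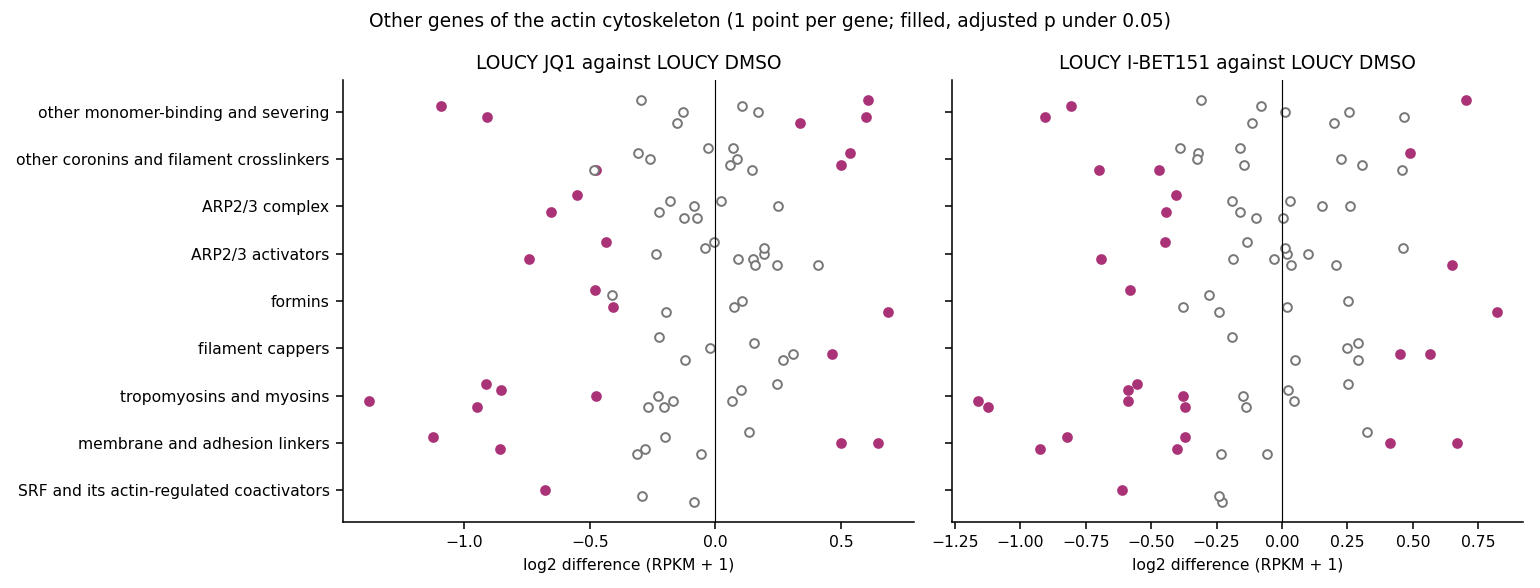
Log2 difference of log2(RPKM + 1) for the other tested genes of the actin cytoskeleton, by list, for JQ1 and I-BET151 against DMSO, with a separate horizontal axis per panel. Filled points passed an adjusted p of 0.05, and no filled point of the tropomyosins and myosins lies above 0.

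The genes most like *ACTG2* were sought over the 18 LOUCY libraries by Pearson correlation of log2(RPKM + 1), among 11410 genes. They were *STRA6* (r = 0.988), *C16orf62* (0.986), *GFI1B* (0.983), *ELMO1* (0.980) and *TRPV2* (0.977). *GFI1B*, a transcriptional repressor of blood cell formation, stood at a mean of 104 RPKM in untreated LOUCY, 19.3 with JQ1 and 17.9 with I-BET151. *STRA6* stood at 17.6, 4.56 and 4.69. The points share the same libraries and the same DMSO and inhibitor groups, so these values describe the pattern only. In JURKAT the likeness did not extend to every gene: *ACTG2* was at a mean of 11.3 RPKM there, while *STRA6* was at 0.426 and *GFI1B* at 0.0136. For *COTL1* over 24 libraries the 5 genes were *TXLNGY* (r = 0.999), *STC2* (0.999), *ALDH1A2* (0.998), *BEX1* (0.998) and *BEX2* (0.998). They share with it the division between the lines, and *ALDH1A2*, which makes retinoic acid, was at a mean of 223.9 RPKM in JURKAT and 0.271 in untreated LOUCY.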

How the data were processed

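RNA sequencing of polyadenylated RNA (Smart-seq2 cDNA, Nextera XT libraries, neither of which marks the strand) was analysed in 24 libraries. The authors deposited RPKM values of 15862 genes on build hg38. STAR 2.5.1b, edgeR 3.10.5, featureCounts and Subread 1.4.5-p1 are named, without roles, per the submitters' processing notes. Annotation and settings are not stated in the labels. Whole reads were recovered from the steps of the values in 100% of genes, within 0.01 reads, giving 4381134 to 7074198 reads per library.

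Values were fitted as log2(RPKM + 1) with limma 3.58.1 (R 4.3.3), keeping genes that reached 1 RPKM in 4 libraries of the fit or more, with an additive experiment term, empirical Bayes moderation with a trend, two-sided tests and Benjamini-Hochberg adjustment over all genes. The threshold was 0.05. The lines were compared over 12 untreated libraries, and the other contrasts in 1 fit of 18 LOUCY libraries. Ratios used exact permutation tests over all assignments of libraries, and also within experiments, with Python 3.11.15 and scipy 1.17.1. Fits and tests were checked on simulated data. The 10 genes and the other lists were chosen with earlier results of these data known, and no list was tested as a set. A further list is not reported here. Other genes are named by a rule: of each list up to 2 higher and 2 lower genes past the threshold with the smallest adjusted p, and the 5 genes most correlated with *ACTG2* and *COTL1*. Not every gene that the rule allows is named, and some lists are given as counts alone. *CD5*, *SRF*, *TAGLN*, *MYH11*, *MYOCD* and *ACTA2* were named after their values were seen. Alternatives covered the pseudocount, filters, scaling, the variance model, the experiments, single libraries and GC content. No other column of per-sample values was present.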

Additional observations from a re-analysis of the deposited data

Results flagged for a closer look

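Values of 4 gene and group pairs, and 2 group ratios, were set apart from the rest of their group by Dixon's test, which flags about 1 in 20 groups by chance, among 65 groups tested. In DMSO, experiment 2 replicate 1 gave 6183 RPKM of *ACTB* against 9027 to 9142 in the other 3 libraries, 1331 RPKM of *ACTG1* against 1728 to 1731, and 5860 RPKM of *TMSB4X* against 7500 to 7634. In I-BET151, experiment 2 replicate 1 gave 4612 RPKM of *TMSB4X* against 7137 to 7483. Both are libraries of steep GC slope, at -0.329 and -0.380. Among the ratios, the same DMSO library gave 0.215 for *ACTG1* to *ACTB* against 0.189 to 0.192, and JURKAT experiment 2 replicate 2 gave 0.894 for *CFL1* to *PFN1* against 0.827 to 0.849.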

How the results depend on the processing

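With JQ1, 6 genes of the set were past the threshold (26.0% of all genes), and 1 in experiment 2 alone (3.44%). With I-BET151 it was 5 (26.3%), against 1 in experiment 2 alone (3.98%), 3 in a fit of the 2 groups alone (14.2%), and 3 to 5 without single libraries, the 3 being without DMSO experiment 1 replicate 1 or 2 (22.2% and 21.7%). The directions of 2 genes were reversed, both with quantile normalization in LOUCY against JURKAT: *ACTB* at -0.23 and *TMSB4X* at -0.017. The *ACTG1* to *ACTB* difference for JQ1 against DMSO was 1.00 in experiment 1 and 0.84 in experiment 2, and for JQ1 against I-BET151 it was 0.36 and 0.12. The cause was not tested. With permutations kept within experiments, the calls of 9 ratio differences were lost, by construction for the 8 of 4 libraries against 4: *ACTG1* to *ACTB* at 0.92 (JQ1), 0.68 (I-BET151) and 0.24 (JQ1 against I-BET151), *CFL1* to *PFN1* at 0.95, 0.75 and 0.20, and *TMSB10* to *TMSB4X* at 0.82 and 0.80 for the inhibitors and 0.40 for LOUCY against JURKAT. For LOUCY against JURKAT the exact permutation p of 0.005 was also the smallest that its 400 assignments can give (adjusted p = 0.075). With the replicate number as a block the counts were 10, 0, 6, 5 and 0 in the 5 comparisons. The shares over all genes were 71.5%, 0.0351%, 24.9%, 25.3% and 0%, in the same order. Of 42 same-numbered pairs of libraries, 17 correlated above 0.1 (range -0.71 to 0.78) in their deviations from the group mean of the experiment. Where both groups held 2 libraries in an experiment, replicates 1 and 2 give the same value by construction. Such values enter these counts for each replicate, so the 42 are not separate observations. Differently numbered pairs were not compared, so these values cannot tell whether the number marks a pairing. Removing the GC trend of each library, voom on recovered reads and the permutations within experiments were chosen after seeing the data. A count test was planned but not run, because the deposited unit is RPKM. Depth limits the precision of *COTL1* in LOUCY (0 to 4 reads per library) and of *ACTG2* with the inhibitors (3 to 20 reads).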
